A study of Mus musculus with 32 samples.

Results

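Microglia are the resident macrophages of the brain, and 32 genes that mark these cells were described in the striatum of mice that differ in a segment of chromosome 11. The genes were a fixed list of names: 11 homeostatic receptors and surface proteins, 3 chains of complement C1q, 6 immune receptors and their adaptors, 6 proteins of the lysosome and phagosome, 4 proteins shared with other leukocytes, and 2 transcription factors. All 32 were among the 23420 genes of the count tables, and 32 of 32 passed the filter on low counts that left 15589 genes for the test. The study asked which striatal transcripts differ between Line 4a congenic mice, in which a D2 (DBA/2J) interval had been mapped for a reduced locomotor response to methamphetamine, and their B6 (C57BL/6J) littermates. B6 mice (n = 8) carried B6 alleles at the chromosome 11 segment, and B6.D2 congenic mice (n = 8) carried 1 D2 copy of it and 1 B6 copy. The background was bred to be B6. Outside the segment, the study found a D2 marker on another chromosome, in wild-type and congenic mice of this and related lines. The labels do not say which of the sequenced mice carried that marker. Both groups were drug-naïve and about 50 days old by the labels, and 3 mm punches from the left and right striatum were pooled for each mouse. The comparison is of a heterozygous segment that holds many genes, not of a single gene, and the labels give neither sex nor home cage. The only member on chromosome 11, *Cd68*, lies at chr11:69664213-69666170 on the minus strand (GRCm38.p6), distal to the segment by the markers of the study.

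Microglia derive from precursors of the yolk sac, depend on signalling through the receptor encoded by *Csf1r*, and keep an identity that is maintained by TGF-β and by the transcription factors PU.1, Irf8 and Sall1. They survey the tissue with fine processes, sense nucleotides through P2Y receptors and neuronal fractalkine through Cx3cr1, and engulf debris and synapses. In the striatum, complement and phagocytic receptors of microglia take part in the pruning of synapses, and C1q in the brain is made largely by these cells.

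PU.1 binds an ETS box with the core GGAA, and the promoters of the members were searched for it. RefSeq windows of GRCm38.p6 from 250 bases before to 50 bases after the transcription start were matched by symbol for 26 of the 32 members, and *Csf1r*, *Tmem119*, *Selplg*, *Gpr34*, *C1qa* and *Tyrobp* had no window. The letters GAGGAA were found on either strand in 15 of these 26 members (57.7%), against 30.4% of the 11391 tested genes with a window and 28.3% of all 32851 windows of this length. The longer GAGGAAGT, which contains GAGGAA, was found for *C1qc*, *Cd53* and *Ctss* (11.5% of 26 members, against 3.38% of tested genes and 3.20% of windows). The ETS-IRF composite element was found for *Cd68* (3.85%, against 2.84% of tested genes and 2.72% of windows). These matches describe letters and are not binding sites. Stretches of 30 bases are shown for members of the C1q, receptor and lysosome groups, and for *Itgam* and *P2ry13*, as examples of how the letters around the box vary, on the strand given, with the box in capitals.
C1qb, chr4:136886213-136886242, minus strand: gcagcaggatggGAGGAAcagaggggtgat
C1qc, chr4:136893091-136893120, plus strand: tgtgccaaaatGAGGAAGTgtctgccgtcc
Ctss, chr3:95526773-95526802, minus strand: gcatccacaatGAGGAAGTgaactttcatt
Cd68, chr11:69666378-69666407, minus strand: tttcttaccaatGAGGAAagggcttcccat
Trem2, chr17:48346349-48346378, minus strand: gcgtgagggaggGAGGAAggaaaggaggct
Fcgr3, chr1:171059392-171059421, plus strand: gaactacaaaaaGAGGAAggaaatggactc
Itgam, chr7:128062544-128062573, plus strand: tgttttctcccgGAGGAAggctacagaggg
P2ry13, chr3:59210913-59210942, minus strand: acaaggggaaatGAGGAAggaaaagcagta
Fcrls, chr3:87263651-87263680, minus strand: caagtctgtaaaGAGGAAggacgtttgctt

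Between 19032826 and 33748353 reads per B6 mouse and between 24912413 and 32085311 per congenic mouse were counted on genes, and the members held between 134 and 6577 reads in a mouse. Mice 1 to 4 of each genotype were sequenced on lanes 5 and 6, and mice 5 to 8 on lanes 7 and 8. A pair of libraries stood apart from the others of their genotype. In congenic mouse 1, 27.3% of all counts, those outside genes included, were set aside for more than 1 alignment, and 10.2% fell on no annotated feature. The first share was 19.5% to 21.4% in the other 15 mice. In B6 mouse 8, 11.3% of all counts fell on no feature, and in the other 14 mice this share was between 14.5% and 15.9%. Congenic mouse 1 was above every other mouse of its genotype for 37.3% of the 15589 genes and below every one for 36.5%, and B6 mouse 8 was the highest B6 mouse for 25.5% and the lowest for 26.6%. The main counts and medians are therefore given with all mice and without congenic mouse 1, as are single members where that mouse moves the value by more than 1.5 times. Levels are CPM, reads of a gene scaled to the size of the library by TMM, a normalization that assumes that most genes do not differ. In tissue RNA, fewer microglia and less RNA per microglial cell cannot be told apart.

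No microglia gene passed an FDR of 5% between the genotypes in edgeR's quasi-likelihood test adjusted by Benjamini-Hochberg over every gene in the test. Of the 32 members 0 passed, against 1 of the 15589 genes (0.00641%), and DESeq2 and the likelihood ratio test of edgeR also called 0 members. The lowest adjusted p of a member was 0.421, for *Lyz2*. At an unadjusted p under 0.05, 3 of 32 members (*Lyz2*, *Cd68* and *Selplg*) had higher congenic means, against 4.86% of all genes, and 0 had lower ones, against 5.14%. The congenic mean was higher for 28 of 32 members, against 54.9% of all genes, and the 4 lower ones were *Fcrls*, *Gpr34*, *P2ry13* and *Mpeg1*. The median log2 fold change (congenic over B6) of the members was 0.09, that of all genes was 0.01, and the members ranged from -0.10 to 0.33. No member kept the genotypes apart, since the 8 congenic and the 8 B6 values overlapped for 32 of 32 members, and 0.0577% of all genes did not overlap.

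A single mouse moved this count. Without congenic mouse 1, the congenic mean was higher for 23 of 32 members, against 49.6% of all genes, and the median log2 fold change was 0.06. The means of *P2ry12*, *C1qb*, *C1qc*, *Fcgr3* and *Cd53* then moved from above to below those of B6. The members with an unadjusted p under 0.05 were then *Csf1r*, *Itgam* and *Lyz2*, with higher congenic means (5.82% of all genes), and *Fcrls* and *Gpr34*, with lower ones (7.54% of all genes), or 5 of 32 members against 13.4%. With B6 mouse 8 left out as well, the mean was higher for 27 of 32 members, against 49.1% of all genes, and the median log2 fold change was again 0.06. At an unadjusted p under 0.05 it was then higher for 4 members (5.44% of all genes) and lower for 2 (7.32% of all genes), together 6 of 32 against 12.8%. The count of members called at an FDR of 5% was 0 in both comparisons, against 0.0256% and 0.0449% of all genes. In the mice of lanes 5 and 6 alone, the congenic mean was higher for 29 of 32 members (all genes 53.5%), and for 24 of 32 (all genes 49.6%) without congenic mouse 1. The members with an unadjusted p under 0.05 were 0 of 32 in each of these, against 3.20% and 4.67% of all genes, and 0 of 32 passed an FDR of 5%, against 0.00% and 0.0127%. In the mice of lanes 7 and 8 it was higher for 17 of 32 (all genes 48.2%), and 5 of 32 had an unadjusted p under 0.05 (all genes 9.01%). There the groups of 4 did not overlap for *Olfml3*, *Lgmn* and *Lyz2*, which were higher (3.08% of all genes), and for *Gpr34*, which was lower, 4 members in all against 5.46% of genes. *Lyz2* alone had an unadjusted p under 0.05 both with and without congenic mouse 1.

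**Figure D1:**
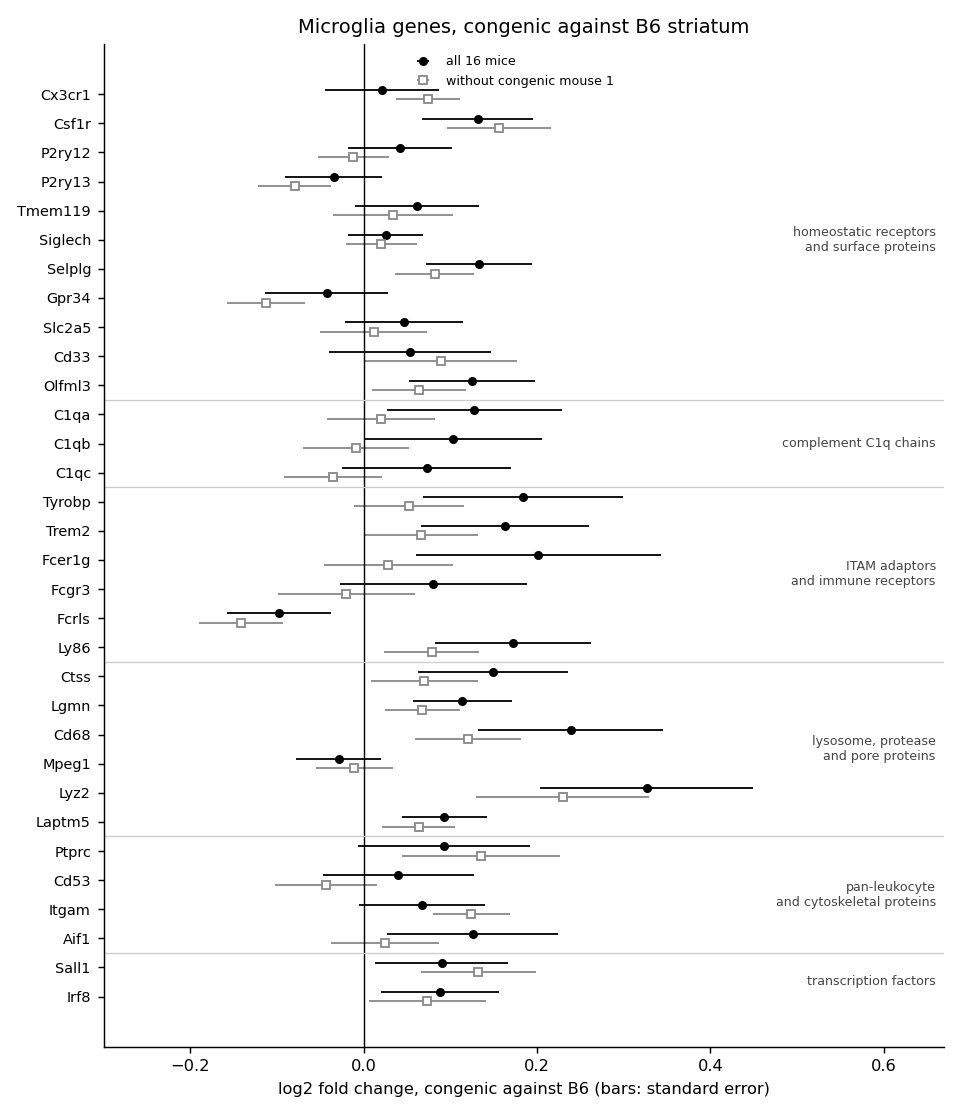
Log2 fold change (congenic over B6) of each of the 32 microglia genes with its standard error from edgeR, for all 16 mice and without congenic mouse 1, grouped by role. With all mice the points lie between -0.10 and 0.33, the C1q chains move to about 0 without congenic mouse 1, and *Lyz2* and *Csf1r* stay to the right of 0.

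The homeostatic group holds receptors and surface proteins of resting microglia, and a secreted protein, *Olfml3*. The congenic mean was higher for 9 of its 11 genes, with a median log2 fold change of 0.05, and 0 passed the test. Without congenic mouse 1 the mean was higher for 8 of 11, with a median of 0.03. *Csf1r*, the receptor for the survival factors CSF1 and IL-34, had values from 148.6 to 199.5 CPM in B6 mice (median 178.8 CPM) and from 167.2 to 207.3 CPM in congenic mice (median 196.6 CPM). The ranges overlapped widely, with 3 congenic mice above the highest B6 mouse and 6 of 8 above the B6 median. On the log2 scale the congenic mean differed by 0.13 ± 0.06 (SE, adjusted p = 0.510), and without congenic mouse 1 it was 0.16 (adjusted p = 0.302). In the lanes 5 and 6 mice it was 0.11 and in the lanes 7 and 8 mice 0.15. The last exons of *Csf1r* overlap those of *Hmgxb3* on the other strand, and reads were counted without strand.

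*Cx3cr1*, the fractalkine receptor, ranged from 86.1 to 102.5 CPM in B6 mice (median 96.6 CPM) and from 70.9 to 107.4 CPM in congenic mice (median 99.4 CPM). The lowest of all 16 mice was congenic mouse 1, and 3 congenic mice were above every B6 mouse. Its mean log2 difference was 0.02 ± 0.07 (SE, adjusted p = 0.927) with all mice and 0.07 without congenic mouse 1. *P2ry12*, the ADP receptor that directs microglial processes to sites of injury, ranged from 64.6 to 77.8 CPM in B6 mice (median 70.8 CPM) and from 66.7 to 91.2 CPM in congenic mice (median 70.6 CPM). Only congenic mouse 1 was outside the B6 range. The mean log2 difference was 0.04 with that mouse and -0.01 without it. *P2ry13*, another ADP receptor that lies beside it on chromosome 3 inside the gene *Med12l* on the other strand, was at a median of 23.0 CPM in B6 mice (21.7 to 25.9 CPM) and 22.5 CPM in congenic mice (21.6 to 27.6 CPM). For *P2ry13*, 1 of 8 congenic mice, mouse 1, was above the B6 median, and the log2 difference was -0.03 with that mouse and -0.08 without it.

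*Tmem119* and *Siglech*, surface proteins used to tell microglia from infiltrating macrophages, had log2 fold changes of 0.06 and 0.03 with all mice and 0.03 and 0.02 without congenic mouse 1, and both groups lay within the same range. *Tmem119* ranged from 27.9 to 38.7 CPM in B6 mice and from 31.2 to 38.4 CPM in congenic mice. *Selplg*, the P-selectin ligand, ranged from 35.6 to 44.3 CPM in B6 mice (median 41.4 CPM) and from 40.9 to 55.9 CPM in congenic mice (median 43.9 CPM). The low end differed more than the high end once congenic mouse 1 was set aside, since congenic mice 2 to 8 reached 46.0 CPM. Its log2 fold change was 0.13 ± 0.06 (SE), with an exact two-sided permutation p of 0.0266 and an adjusted p of 0.480 in edgeR, and it was 0.08 without congenic mouse 1. *Gpr34*, a lysophosphatidylserine receptor, was at 24.2 to 29.6 CPM in B6 mice (median 26.8 CPM) and 23.6 to 34.7 CPM in congenic mice (median 25.2 CPM). The highest of all mice was congenic mouse 1 and the other 7 congenic mice were at or below 26.4 CPM. For *Gpr34* the log2 fold change was -0.04 with all mice and -0.11 without congenic mouse 1 (adjusted p = 0.307).

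The remaining homeostatic genes also had overlapping groups. *Olfml3*, a secreted olfactomedin-like protein, ranged from 25.1 to 31.1 CPM in B6 mice (median 28.5 CPM) and from 25.1 to 39.3 CPM in congenic mice (median 30.4 CPM), with congenic mice 2 to 8 reaching 30.9 CPM. The log2 fold change of *Olfml3* was 0.12 with all mice and 0.06 without congenic mouse 1. *Slc2a5*, the fructose transporter GLUT5, and *Cd33*, an inhibitory sialic acid receptor, both had log2 fold changes of 0.05 at medians of 7.93 CPM and 9.82 CPM in B6 mice, which became 0.01 and 0.09 without congenic mouse 1. For *Cd33* the 8 congenic mice lay inside the B6 range of 7.56 to 11.8 CPM.

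The C1q chains showed how far 1 library could carry a group. C1qa, C1qb and C1qc form the recognition molecule of the classical complement pathway, and their genes stand side by side on the minus strand of chromosome 4 (GRCm38.p6), *C1qb* at chr4:136880126-136886200, *C1qc* at chr4:136889801-136892936 and *C1qa* at chr4:136895916-136898844. All 3 had a higher congenic mean with all mice, with a median log2 fold change of 0.10, and 0 passed the test. Without congenic mouse 1 this was 1 of 3, with a median of -0.01. *C1qa* ranged from 48.1 to 66.1 CPM in B6 mice (median 57.2 CPM) and from 56.3 to 93.0 CPM in congenic mice (median 58.5 CPM). *C1qb* ranged from 56.2 to 78.3 CPM in B6 mice (median 64.1 CPM) and from 60.3 to 105.7 CPM in congenic mice (median 65.3 CPM). *C1qc* ranged from 49.5 to 67.1 CPM in B6 mice (median 59.8 CPM) and from 52.9 to 92.3 CPM in congenic mice (median 57.5 CPM). For each chain congenic mouse 1 was the highest of the 16 mice, and the other 7 congenic mice lay within the B6 range.

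The summed level of the 3 chains was 154.3 to 211.4 CPM in B6 mice, 171.8 to 187.8 CPM in congenic mice 2 to 8 and 291.0 CPM in congenic mouse 1. The chains kept their proportions in that mouse. There were 1.14 ± 0.045 reads of *C1qb* per read of *C1qa* in B6 mice (SD, n = 8), 1.12 ± 0.042 in congenic mice (SD, n = 8) and 1.14 in congenic mouse 1. The log2 fold changes with all mice were 0.13 ± 0.10 for *C1qa* (SE, adjusted p = 0.672), 0.10 for *C1qb* and 0.07 for *C1qc*, and without congenic mouse 1 they were 0.02, -0.01 and -0.04. In the lanes 5 and 6 mice, which include congenic mouse 1, the 3 values were 0.27, 0.24 and 0.23. There, without congenic mouse 1, they were 0.06, 0.01 and 0.0008. In the lanes 7 and 8 mice they were -0.02, -0.04 and -0.08. The difference between lane pairs was tested as a genotype by lane pair interaction across all genes, and 0 genes passed an FDR of 5% (lowest adjusted p of a member 0.950, edgeR). At an unadjusted p under 0.05 this interaction held 1 of 32 members, against 1.88% of all genes.

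**Figure D2:**
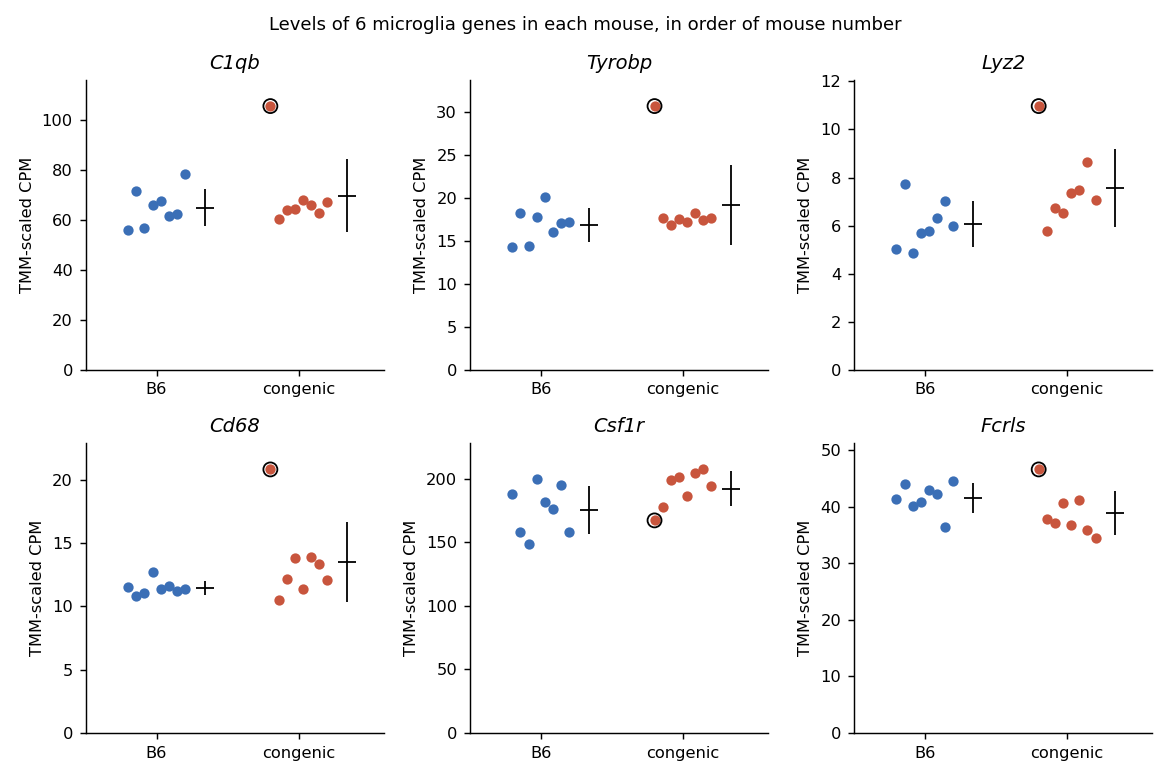
TMM-scaled CPM of *C1qb*, *Tyrobp*, *Lyz2*, *Cd68*, *Csf1r* and *Fcrls* in each mouse, with the mean and SD of each genotype (n = 8) and congenic mouse 1 ringed. For *C1qb* and *Tyrobp* the ringed mouse, at 105.7 and 30.7 CPM, stands above the 15 others, which overlap between the genotypes.

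The immune receptor group is built around *Tyrobp* and *Fcer1g*, adaptors with an ITAM, a phosphorylation motif that recruits the kinase Syk, through which Trem2 and Fcgr3 signal. The congenic mean was higher for 5 of its 6 genes, with a median log2 fold change of 0.17 with all mice and 0.04 without congenic mouse 1, where it was higher for 4 of 6. *Tyrobp*, which encodes the adaptor DAP12, ranged from 14.2 to 20.1 CPM in B6 mice (median 17.1 CPM) and from 16.8 to 30.7 CPM in congenic mice (median 17.6 CPM). Again congenic mouse 1 was apart, and mice 2 to 8 lay within the B6 range, at up to 18.2 CPM. Its log2 fold change was 0.18 ± 0.12 (SE, adjusted p = 0.5996) with all mice and 0.05 without congenic mouse 1. *Trem2*, the lipid-sensing receptor that pairs with DAP12, ranged from 14.6 to 19.8 CPM in B6 mice (median 17.0 CPM) and from 16.2 to 27.5 CPM in congenic mice (median 18.1 CPM). Its log2 fold change was 0.16 with all mice and 0.07 without congenic mouse 1.

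*Fcer1g*, the common γ chain of Fc receptors, had the widest gap between congenic mouse 1 and the others. It ranged from 7.81 to 11.03 CPM in B6 mice (median 9.62 CPM) and from 8.39 to 19.7 CPM in congenic mice (median 10.1 CPM), and congenic mouse 1 was 1.94 times the median of the other 7 congenic mice. The log2 fold change was 0.20 ± 0.14 (SE) with all mice and 0.03 without congenic mouse 1. *Fcgr3*, an activating IgG receptor that uses this chain, was at medians of 13.9 CPM in both genotypes, with B6 mice from 11.3 to 18.2 CPM and congenic mice from 13.6 to 22.1 CPM, and its log2 fold change was 0.08 with all mice and -0.02 without congenic mouse 1. Reads that fit *Fcgr3* and a related receptor gene equally well were not counted. *Ly86*, the MD-1 protein that accompanies the Toll-like receptor homologue RP105, ranged from 14.6 to 18.01 CPM in B6 mice (median 16.0 CPM) and from 15.3 to 25.7 CPM in congenic mice (median 17.3 CPM). Its log2 fold change was 0.17 ± 0.09 (SE, adjusted p = 0.533) with all mice, where 3 congenic mice were above all B6 mice, and 0.08 without congenic mouse 1.

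*Fcrls*, an Fc receptor-like scavenger protein of microglia, went the other way. It ranged from 36.4 to 44.5 CPM in B6 mice (median 41.8 CPM) and from 34.4 to 46.6 CPM in congenic mice (median 37.5 CPM). The highest congenic value was that of mouse 1, and the other 7 were below the B6 median, 2 of them below every B6 mouse. The log2 fold change was -0.10 ± 0.06 (SE, adjusted p = 0.590) with all mice and -0.14 without congenic mouse 1, where the unadjusted p was 0.00884 and the adjusted p 0.266 in edgeR. The value was -0.03 in the lanes 5 and 6 mice, -0.11 there without congenic mouse 1, and -0.17 in the lanes 7 and 8 mice.

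With all mice, the lysosome group held the members with the largest log2 fold changes, *Lyz2* and *Cd68*, with a higher congenic mean for 5 of 6 genes and a median log2 fold change of 0.13 (0.07 without congenic mouse 1). *Lyz2*, the macrophage lysozyme, ranged from 4.88 to 7.72 CPM in B6 mice (median 5.87 CPM) and from 5.76 to 10.97 CPM in congenic mice (median 7.21 CPM). The highest was congenic mouse 1, 1 further congenic mouse was above every B6 mouse, and 7 of 8 congenic mice were above the B6 median. The log2 fold change was 0.33 ± 0.12 (SE), with an exact two-sided permutation p of 0.0249 and an adjusted p of 0.421 in edgeR, and 0.23 without congenic mouse 1 (adjusted p = 0.34). It was 0.37 in the lanes 5 and 6 mice, 0.12 there without congenic mouse 1, and 0.28 in the lanes 7 and 8 mice. *Lyz1* is a close copy of *Lyz2*, so some of its reads may have been lost or split in counting.

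*Cd68*, a glycoprotein of late endosomes that is used as a marker of phagocytic macrophages, ranged from 10.8 to 12.7 CPM in B6 mice (median 11.4 CPM) and from 10.54 to 20.8 CPM in congenic mice (median 12.8 CPM). Of the congenic mice 4 were above and 1 was below every B6 mouse. For *Cd68* the log2 fold change was 0.24 ± 0.11 (SE), with an exact two-sided permutation p of 0.0359 and an adjusted p of 0.476 in edgeR, and 0.12 without congenic mouse 1, which is then below the sizes for *Csf1r*, *Fcrls*, *Ptprc*, *Sall1* and *Itgam*. *Ctss* and *Lgmn* encode the lysosomal proteases cathepsin S and legumain. *Ctss* ranged from 82.6 to 109.2 CPM in B6 mice (median 93.4 CPM) and from 89.6 to 142.4 CPM in congenic mice (median 101.7 CPM), and mouse 1 was the one congenic mouse outside the B6 range. *Lgmn* ranged from 114.7 to 134.9 CPM in B6 mice (median 124.3 CPM) and from 113.4 to 162.6 CPM in congenic mice (median 132.3 CPM), with 3 congenic mice above and 1 below every B6 mouse. Their log2 fold changes were 0.15 and 0.11 with all mice and 0.07 for both without congenic mouse 1.

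*Laptm5*, a lysosomal membrane protein of leukocytes, was at 46.2 to 54.8 CPM in B6 mice and 49.0 to 60.7 CPM in congenic mice, at a log2 fold change of 0.09 ± 0.05 (SE, adjusted p = 0.537), or 0.06 without congenic mouse 1. *Mpeg1*, the pore-forming perforin-2, was at 55.7 to 69.2 CPM and 54.9 to 64.8 CPM, and its log2 fold change was -0.03, or -0.01 without congenic mouse 1. The congenic mice of *Mpeg1* all stayed under the highest B6 mouse.

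The pan-leukocyte group had a higher congenic mean for 4 of 4 genes, with a median log2 fold change of 0.08, and without congenic mouse 1 for 3 of 4, with 0.07. *Itgam*, the CD11b chain of complement receptor 3, ranged from 44.0 to 52.1 CPM in B6 mice (median 47.8 CPM) and from 35.7 to 54.7 CPM in congenic mice (median 51.6 CPM). Congenic mouse 1 was the lowest of all 16 mice and the other 7 congenic mice were above the B6 median. For *Itgam* the log2 fold change was 0.07 ± 0.07 (SE, adjusted p = 0.766) with all mice and 0.12 without congenic mouse 1, with an unadjusted p of 0.0122 and an adjusted p of 0.280 in edgeR. *Ptprc*, the phosphatase CD45, was low, at 5.04 to 7.51 CPM in B6 mice and 5.62 to 8.49 CPM in congenic mice, and its log2 fold change was 0.09 with all mice and 0.14 without congenic mouse 1. *Aif1*, the actin-binding protein Iba1 used to stain microglia, was at 6.36 to 8.59 CPM in B6 mice and 7.14 to 11.8 CPM in congenic mice, with congenic mouse 1 as the one value above the B6 range, and its log2 fold change was 0.13 with that mouse and 0.02 without it. *Cd53*, a tetraspanin, had a log2 fold change of 0.04 with all mice and -0.04 without congenic mouse 1.

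Of the transcription factors, *Sall1*, which maintains microglial identity, ranged from 33.2 to 44.7 CPM in B6 mice (median 40.5 CPM) and from 33.1 to 46.9 CPM in congenic mice (median 44.3 CPM). *Irf8*, a partner of PU.1, ranged from 7.60 to 10.2 CPM in B6 mice (median 9.47 CPM) and from 9.25 to 10.4 CPM in congenic mice (median 9.53 CPM). Both had log2 fold changes of 0.09 with all mice, and 0.13 for *Sall1* and 0.07 for *Irf8* without congenic mouse 1, which was the lowest congenic mouse for *Sall1*.

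The side on which congenic mouse 1 fell followed the length of the transcript. Its deviation from the median of the other 7 congenic mice was taken on the log2 scale and set against transcript length, and across the 32 members Spearman's rho was -0.87, a description over genes that share 1 library. Across 14055 genes with a length it was -0.66. The 12 members with transcripts under 1500 bases were higher in congenic mouse 1 in 12 of 12 cases, with a median deviation of 0.67 (0.57 over all genes of that length). Of the 14 members between 1500 and 3500 bases 13 were higher, with a median of 0.30 (0.15 over all genes of that length). Of the 6 members over 3500 bases 0 were higher, with a median of -0.41 (-0.29 over all genes of that length).

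The short group held the C1q chains, *Tyrobp*, *Trem2*, *Fcer1g*, *Fcgr3*, *Ly86*, *Ctss*, *Cd68*, *Lyz2* and *Aif1*. The long group was *Cx3cr1*, *Csf1r*, *Mpeg1*, *Ptprc*, *Itgam* and *Sall1*. Congenic mouse 1 was 1.75 times the median of the other congenic mice for *Tyrobp*, 1.71 times for *Cd68* and 1.64 times for *C1qb*. It was 0.691 times that median for *Itgam*, 0.707 times for *Cx3cr1* and 0.748 times for *Sall1*. There were 0.433 reads of *Tyrobp* per read of *Cx3cr1* in this mouse, 0.173 ± 0.007 in congenic mice 2 to 8 (SD, n = 7) and 0.175 ± 0.015 in B6 mice (SD, n = 8). B6 mouse 8 leaned the same way, with a rho of -0.53 across members and -0.18 across all genes, and B6 mouse 2 had -0.60 and -0.15. In the other 13 mice rho across members was between -0.22 and 0.57.

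With an offset for the trend of each library with transcript length, a reading added after the data had been seen, the congenic mean was higher for 27 of 32 members, against 48.8% of all genes, with a median log2 fold change of 0.06. At an unadjusted p under 0.05 there were 4 higher members (5.20% of all genes) and 1 lower member (6.45% of all genes), or 5 of 32 against 11.7%, and 0 members passed an FDR of 5%, against 0.0356% of all genes.

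**Figure D3:**
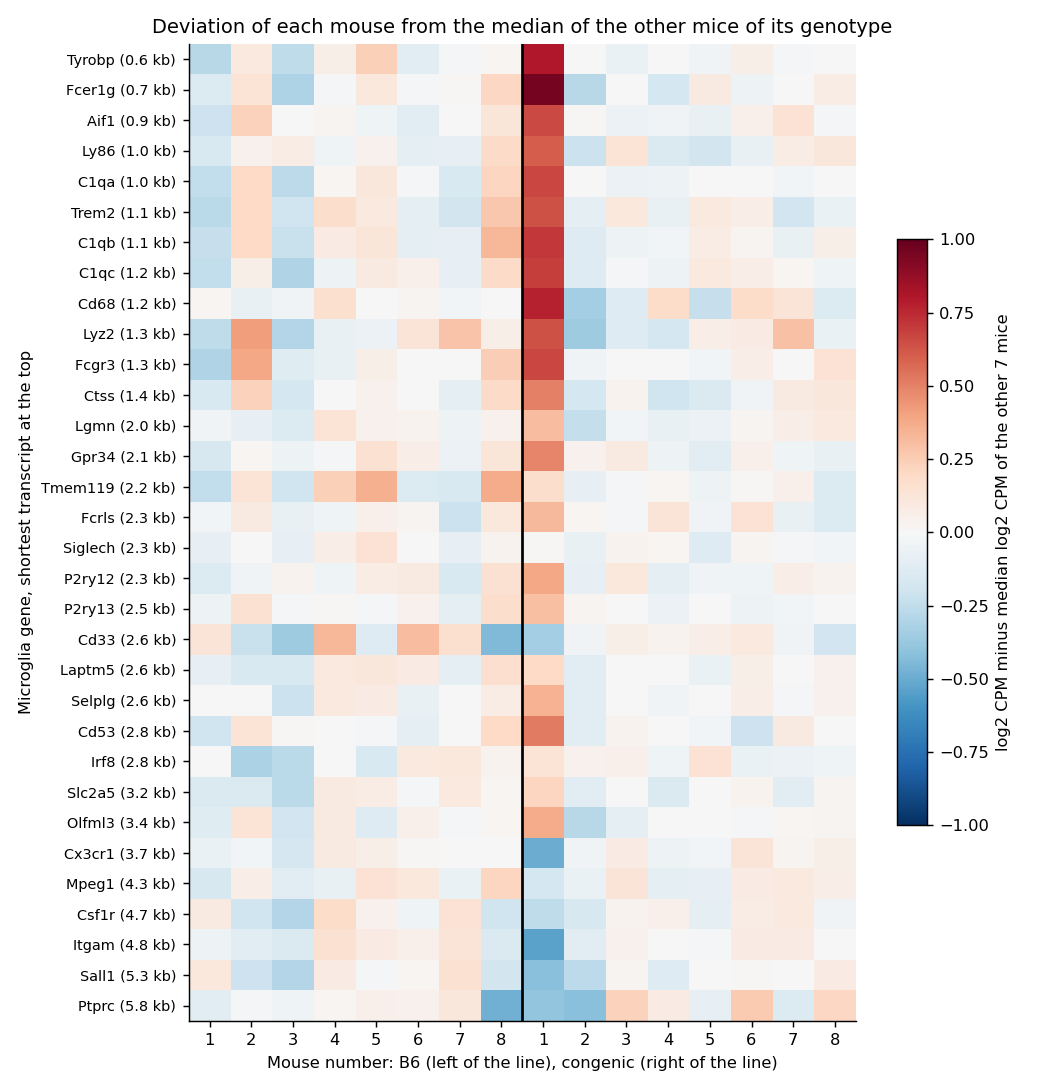
Deviation of each mouse from the median of the other mice of its genotype, in log2 CPM, for the 32 microglia genes ordered by transcript length. Congenic mouse 1 runs from high values at the short transcripts to low values at the long ones, and B6 mouse 8 shows a paler run of the same direction.

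**Figure D4:**
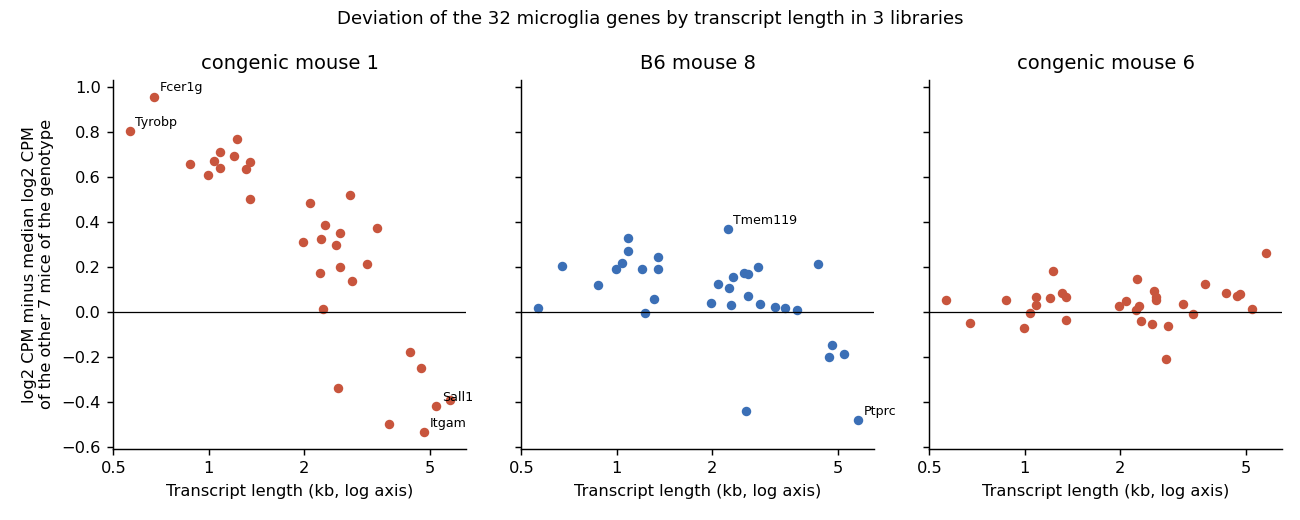
Log2 CPM of each of the 32 microglia genes minus the median of the other 7 mice of the genotype, against transcript length in kilobases (log axis), in congenic mouse 1, B6 mouse 8 and congenic mouse 6. In congenic mouse 1 the points fall from short to long transcripts (Spearman's rho -0.87), in B6 mouse 8 less so (-0.53), and in congenic mouse 6, shown as one of the other mice, they lie near 0.

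The spread of the microglia genes among congenic mice depended on congenic mouse 1. The coefficient of variation had a median of 4.79% over the members in congenic mice 2 to 8, against 5.24% over 10073 genes of the same range of levels, and of 8.80% in B6 mice, against 7.79%. With congenic mouse 1 included it was 12.7% in congenic mice, against 9.99%. It was smaller in congenic mice 2 to 8 than in B6 mice for 27 of 32 members, against 78.6% of genes of the same level, and it was also smaller than in B6 mice 1 to 7 for 27 members, against 67.8%. *C1qa*, the lowest of the 32 members here, varied by 1.79% among congenic mice 2 to 8 and by 12.4% among B6 mice. The 1.79% was below the 2.44% that counting of reads alone would give on average. Of the 32 members 8 varied less among congenic mice 2 to 8 than counting alone would give on average. The same share over other genes was not counted, so this count cannot be read as a trait of the members.

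Genes whose products work together were compared across the 16 mice in 10 pairs, of which 8 passed an adjusted p of 0.05 by Pearson's r and 6 by Spearman's rho. The same share over other pairs of genes was not counted, so these counts cannot be read as a trait of partner genes. The part of the trend of single libraries with transcript length in these relations was not tested. Each r and rho was tested with 100000 permutations and adjusted over the 10 pairs. The C1q chains had the closest relation. For *C1qa* and *C1qb* r was 0.97 (permutation p = 1e-05, the smallest that can be drawn, adjusted p = 6.67e-05) and rho was 0.88 (permutation p = 3e-05), r stayed at 0.87 without the 2 mice farthest from the median, and it was 0.86 in the 8 lanes 7 and 8 mice. The other 2 pairs of chains had r of 0.94 and 0.96, and 0.74 and 0.82 without the 2 farthest mice.

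The receptor pairs leaned more on congenic mouse 1. For *Tyrobp* and *Fcer1g* r was 0.90 (adjusted permutation p = 0.00186) but rho was 0.44 (adjusted permutation p = 0.109), r was 0.57 without congenic mouse 1, 0.19 in the lanes 7 and 8 mice and 0.61 in the 7 lanes 5 and 6 mice without congenic mouse 1. For *Tyrobp* and *Trem2* r was 0.88 and rho 0.51 (adjusted permutation p = 0.0687), with an r of 0.64 without congenic mouse 1, 0.23 in the lanes 7 and 8 mice and 0.90 in the 7 lanes 5 and 6 mice without congenic mouse 1. Without congenic mouse 1 and B6 mouse 1, the 2 mice farthest from the median, r was 0.53 for the first of these pairs and 0.47 for the second. *Fcer1g* and *Fcgr3*, subunits of one receptor, had r of 0.85 and rho of 0.79, and r of 0.64 without the 2 farthest mice.

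*P2ry12* and *P2ry13* had r of 0.77 and rho of 0.64 (adjusted permutation p = 0.0184), and r of 0.32 without the 2 farthest mice, which were congenic mouse 1 and B6 mouse 8, with 0.54 without congenic mouse 1 alone, 0.81 in the lanes 7 and 8 mice and 0.24 in the lanes 5 and 6 mice without congenic mouse 1. *Csf1r* and *Cx3cr1* had r of 0.57 (adjusted permutation p = 0.0229) and rho of 0.61, and r was 0.71 without congenic mouse 1, with 0.58 in the lanes 7 and 8 mice. *Irf8* and *Csf1r* had r of 0.43 (adjusted permutation p = 0.101) and rho of -0.02. *Sall1* and *Tmem119* had r of -0.21 (adjusted permutation p = 0.437) and rho of -0.21, and neither of these pairs passed.

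**Figure D5:**
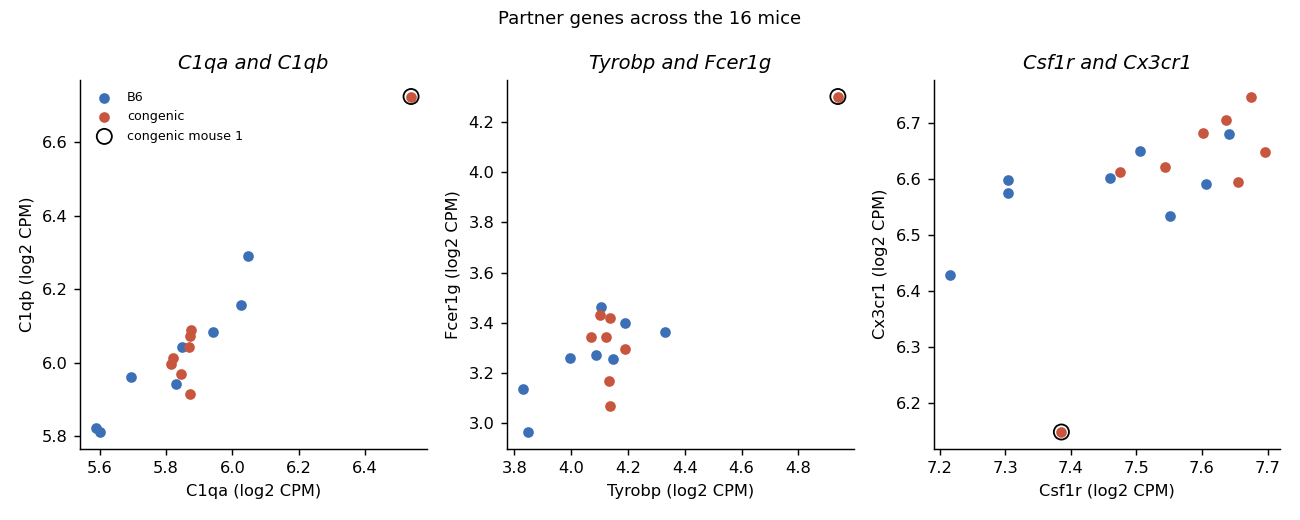
Log2 CPM of *C1qa* against *C1qb*, *Tyrobp* against *Fcer1g* and *Csf1r* against *Cx3cr1* in each of the 16 mice, coloured by genotype, with congenic mouse 1 ringed. The C1q points form a line with or without the ringed mouse, and the *Tyrobp* and *Fcer1g* points form a loose group below it.

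Per length of transcript, the proteases and C1q chains were the most abundant members in B6 mice. *Ctss* stood at 69.4 ± 7.25 CPM per kilobase (SD, n = 8), above 93.6% of the 14055 genes with a length. *Lgmn* followed at 62.3 ± 3.04, *C1qb* at 59.7 ± 6.89, *C1qa* at 54.7 ± 6.77 and *C1qc* at 48.7 ± 4.82 CPM per kilobase (SD, n = 8). The mean ± SD of neighbours in this order overlapped, and the order within single mice was not compared. *Csf1r* was at 37.3 ± 3.99, *P2ry12* at 30.3 ± 1.93, *Tyrobp* at 29.9 ± 3.48 and *Cx3cr1* at 25.7 ± 1.33 CPM per kilobase, of which *P2ry12* and *Tyrobp* could not be ordered. At the other end *Irf8* was at 3.20, *Slc2a5* at 2.45 and *Ptprc* at 1.16 ± 0.13 CPM per kilobase, the last above 16.4% of genes.

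Other genes of microglia and of the signals they depend on were taken as lists, each of which had 0 calls at an FDR of 5%. The counts at an unadjusted p under 0.05 stand beside 4.86% of all genes higher and 5.14% lower with all mice, and 5.82% and 7.54% without congenic mouse 1. Of 33 further microglial genes, 4 had higher and 1 a lower congenic mean at an unadjusted p under 0.05, with a median log2 fold change of 0.07 (4 and 0, with 0.05, without congenic mouse 1). *Hmha1*, now named Arhgap45, ranged from 8.32 to 13.7 CPM in B6 mice and 11.3 to 15.9 CPM in congenic mice, 6 of which were above every B6 mouse. Its log2 fold change was 0.28 ± 0.10 (SE, adjusted p = 0.417) and 0.32 without congenic mouse 1. *Csf3r*, the G-CSF receptor, had 0.23, and *Ltc4s*, leukotriene C4 synthase, had 0.26 with all mice and 0.18 without congenic mouse 1. *Sfpi1*, which encodes PU.1, had a log2 fold change of 0.14 (adjusted p = 0.643), or 0.09 without congenic mouse 1.

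Among 17 ligands and receptors that maintain microglia, 1 had a higher and 2 a lower congenic mean at an unadjusted p under 0.05, with a median log2 fold change of -0.01 (1 and 1, with -0.02, without congenic mouse 1). *Cx3cl1*, the neuronal ligand of Cx3cr1, ranged from 751.4 to 979.9 CPM in B6 mice and from 737.0 to 869.1 CPM in congenic mice, with 3 congenic mice below every B6 mouse and a log2 fold change of -0.12 ± 0.06 (SE, adjusted p = 0.491). *Sirpa*, the receptor of the CD47 signal that restrains engulfment, had -0.09, and 5 congenic mice were below every B6 mouse. *Axl*, a receptor for apoptotic cells, had 0.12. The ligands of Csf1r went to either side, with 0.16 for *Csf1* and -0.08 for *Il34*, and *Tgfb1* had 0.01.

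Of 19 complement genes outside C1q, 2 had higher and 1 a lower congenic mean at an unadjusted p under 0.05, with a median log2 fold change of 0.12. Without congenic mouse 1 this was 5 higher and 1 lower, with a median of 0.05. *C2*, which forms the convertase with C4, ranged from 0.472 to 1.18 CPM in B6 mice and 0.876 to 1.53 CPM in congenic mice, with a log2 fold change of 0.46 ± 0.16 (SE, adjusted p = 0.401). *C5ar2*, a receptor of C5a, had 0.41 with all mice, 0.81 in the lanes 5 and 6 mice and 0.02 in the lanes 7 and 8 mice. *Cd55*, which accelerates the decay of convertases, had -0.22 with all mice, -0.43 in the lanes 5 and 6 mice and -0.01 in the lanes 7 and 8 mice. *C4b* had 0.34 (adjusted p = 0.517) with all mice, -0.003 in the lanes 5 and 6 mice, 0.07 there without congenic mouse 1 and 0.62 in the lanes 7 and 8 mice, and *C3* had 0.42 (adjusted p = 0.662) at 1.17 CPM or less in every mouse.

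Of 15 signalling genes below Tyrobp and Fcer1g, 1 was higher and 1 lower at an unadjusted p under 0.05, the adaptor *Lat2* at 0.30 and *Sirpa*. Without congenic mouse 1 *Lat2* had 0.24 and *Sirpa* -0.08, and neither kept an unadjusted p under 0.05. The counts of the list were then again 1 higher and 1 lower. Of 20 genes of activated or disease-associated microglia, 4 were higher and 1 lower, with a median log2 fold change of 0.10, and without congenic mouse 1 the counts were 2 and 1, with a median of 0.04. *Spp1*, osteopontin, had 0.54 ± 0.22 (SE, adjusted p = 0.456), with an exact two-sided permutation p of 0.0654, and 0.44 without congenic mouse 1. It had 0.43 in the lanes 5 and 6 mice, 0.09 there without congenic mouse 1, and 0.65 in the lanes 7 and 8 mice. *Gpnmb*, a glycoprotein of lipid-laden phagocytes, had -0.46 ± 0.18 (SE, adjusted p = 0.431), and *Apoe*, made mainly by astrocytes, had 0.14 (0.10 without congenic mouse 1). Of 16 inflammatory genes, which hold cytokines, chemokines, enzymes and *Nlrp3*, 8 were under 1 CPM in every mouse and 7 were tested. Of those tested 1, the cyclooxygenase gene *Ptgs2*, had a lower congenic mean at an unadjusted p under 0.05, with a log2 fold change of -0.48.

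Markers of other cells that share these genes were measured beside them. Of 13 genes of blood monocytes and neutrophils 10 were under 1 CPM in every mouse, and *S100a8* and *S100a9* had at most 5 reads in a mouse. The exceptions were *Vcan* at 28.7 to 48.4 CPM, *Cxcr2* at 4.06 to 7.45 CPM, and *Plac8*, which reached 1.13 CPM in congenic mouse 1. Of 12 lymphocyte genes 11 were under 1 CPM in every mouse, with at most 2 reads for *Cd3e*, and the exception was *Cd4*, at 66.2 to 103.5 CPM. Of 13 genes of border-associated macrophages 11 were tested and 0 had an unadjusted p under 0.05 (1 higher without congenic mouse 1), and *Mrc1*, the mannose receptor, had a log2 fold change of -0.13 at a B6 median of 5.01 CPM. Of the neural cell types, the 12 astrocyte markers had a median log2 fold change of 0.08 with 1 gene (*Gjb6*) higher at an unadjusted p under 0.05, the 12 oligodendrocyte markers 0.11 with 0 genes, the 12 endothelial and mural markers 0.13 with *Acta2* and *Ly6c1* higher, and the 12 striatal projection neuron markers 0.04 with 0 genes. Without congenic mouse 1 these medians were 0.04, 0.04, 0.16 and 0.04. In the same order, the congenic mean was higher for 9, 11, 10 and 9 of 12 markers with all mice. Without congenic mouse 1 it was higher for 10, 11, 11 and 11 of 12. *Ly6c1* was at 87.2 CPM in congenic mouse 1 and at up to 28.6 CPM in the other congenic mice, and its log2 fold change was 0.55 with that mouse and 0.18 without it. Without congenic mouse 1, *Gjb6* went from 0.20 to 0.11 and *Acta2* from 0.45 to 0.31, and neither kept an unadjusted p under 0.05. The genes higher at that p were then 1 of the astrocyte markers and 3 of the endothelial and mural markers. Cortical glutamatergic neuron markers stood on the other side, with a lower congenic mean for 12 of 12 genes, a median log2 fold change of -0.56, 9 of 12 genes at an unadjusted p under 0.05, and summed levels of 577.7 to 935.8 CPM in B6 mice and 407.1 to 821.8 CPM in congenic mice. The summed level of the 32 microglia genes was 1177.8 to 1373.5 CPM in B6 mice, 1266.2 to 1400.0 CPM in congenic mice 2 to 8 and 1603.6 CPM, the highest of the 16, in congenic mouse 1. The part of these other cells in the microglial values was not tested.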

How the data were processed

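Striatal RNA of 16 mice was sequenced by the authors as 50-base single-end reads, on 2 lanes per library. Per the methods and the labels, reads were aligned with TopHat2 2.0.0 to mm10 and counted per gene with HTSeq 0.6.1p1 without strand, and the authors deposited these counts for each mouse and lane without normalization. Reads with more than 1 alignment or on more than 1 gene are not in the gene counts. The authors' own fold changes, p-values and FDRs were not used.

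Here the 31 lane files were summed by mouse (1 file for B6 mouse 7). Genotype was tested in edgeR 4.0.16 (R 4.3.3; TMM, filterByExpr, quasi-likelihood, no covariate), adjusted by Benjamini-Hochberg over the 15589 genes tested. The standard error is the log2 fold change divided by the square root of F. P-values of the genotype test weigh the difference in means against the spread between mice, which includes counting error. For low genes much of the spread is counting error. The mice were littermates, and a likeness of mice from 1 cage was not modelled because home cage is not in the labels. Single genes were compared by exact permutation of the mice and pairs of genes by permutation (scipy 1.17.1). The transcript length of a gene was that of its longest protein-coding transcript in GENCODE, and exon overlaps also came from GENCODE (NCBIM37). Gene positions and promoters came from RefSeq tables (GRCm38.p6). All were matched by symbol. The script was tested on simulated data. Genes outside the members are named if they had 1 of the 3 smallest p under 0.05 of their list, or were among 10 fixed names; those named for their low counts (*Cd3e*, *S100a8* and *S100a9*) and the exceptions beside them were chosen after their values were seen. A few named genes are not reported here but stay in the counts over lists and over all genes. The members and lists were chosen with earlier results of these data known. Alternatives were other normalizations, filters, tools, lanes and left-out mice.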

Additional observations from a re-analysis of the deposited data

Results flagged for a closer look

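In groups of 8 mice, the highest or lowest mouse was compared with Dixon's 95% critical value for its gap to the next mouse, which chance passes in about 1 in 20 groups. Of 132 groups tested, congenic mouse 1 stood above the other congenic mice for 18 members and below them for 2. The same rule was not run over all genes, so this count cannot be read as a trait of the members. Over the 15589 genes this mouse was above every other congenic mouse for 37.3% and below every one for 36.5%. These values share 1 library and are not separate results.

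Above the others it had, in CPM, 91.2 for *P2ry12*, 27.6 for *P2ry13*, 55.9 for *Selplg*, 34.7 for *Gpr34*, 9.31 for *Slc2a5* and 39.3 for *Olfml3* among the homeostatic genes. It had 93.0 for *C1qa*, 105.7 for *C1qb* and 92.3 for *C1qc*, the C1q chains. Among the receptors and lysosomal proteins it had 30.7 for *Tyrobp*, 27.5 for *Trem2*, 19.7 for *Fcer1g*, 22.1 for *Fcgr3*, 25.7 for *Ly86*, 142.4 for *Ctss* and 20.8 for *Cd68*. It had 20.2 for *Cd53* and 11.8 for *Aif1*. It was below the others at 70.9 CPM for *Cx3cr1* and 35.7 CPM for *Itgam*, which are long transcripts.

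Outside the members it was above the others for *Ltc4s* (5.17 CPM), *Apoe* (1584 CPM), *Gjb6* (62.4 CPM) and *Ly6c1* (87.2 CPM). In the same library the share of all counts with more than 1 alignment (27.3%), on no feature (10.2%) and on more than 1 gene (1.07%) stood apart. So did Spearman's rho of its deviation with transcript length, -0.66 over all genes and -0.87 over the members. B6 mouse 8 stood apart with 11.3% of all counts on no feature, 0.933% on more than 1 gene, 68.3% on genes, 5.04 CPM for *Ptprc* and 5.50 CPM for *Sfpi1*.

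Single values of other mice also stood apart, 12.7 CPM for *Cd68* in B6 mouse 4 and 1.15 CPM for *C3* in B6 mouse 7. The part of library quality in these values was not tested.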

How the results depend on the processing

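No member passed an FDR of 5% under any of the alternatives run. The number of genes called over all genes was 1, and it was 32 with DESeq2, 20 with the likelihood ratio test, 2 with lane pair as a covariate, 0 in the lanes 5 and 6 mice, 0 in the lanes 7 and 8 mice, and 1 to 4 when 1 mouse was left out, 4 without congenic mouse 1 and 3 without congenic mouse 6. The 3 members with an unadjusted p under 0.05 became 5 with upper-quartile normalization, 0 in the lanes 5 and 6 mice, 5 in the lanes 7 and 8 mice, and 1 to 8 when 1 mouse was left out, 8 without congenic mouse 2, 5 without congenic mouse 1 or B6 mouse 4, and 1 without B6 mouse 2, B6 mouse 3 or congenic mouse 6. In alternatives added after seeing the data, genes called and members with an unadjusted p under 0.05 were 7 and 6 without congenic mouse 1 and B6 mouse 8, 5 and 5 with the length offset, and 2 and 0 in the lanes 5 and 6 mice without congenic mouse 1. The median log2 fold change of the members was 0.09, from 0.06 to 0.11 when 1 mouse was left out, 0.15 in the lanes 5 and 6 mice and 0.03 in the lanes 7 and 8 mice. Members whose groups do not overlap were 4 in the lanes 7 and 8 mice and 0 to 0 when 1 mouse was left out. No member changed sign with other normalizations, filters or tools, and 11 did in the lanes 7 and 8 mice, 5 in the lanes 5 and 6 mice and 5 without congenic mouse 1. The cause was not tested.

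Mice of the same number in both genotypes also shared a pair of lanes, and the labels do not say whether they shared a cage or litter. The correlation of their deviations was over 0.1 for 3 of 8 numbers, and 1 congenic and 2 B6 mice correlated best with their own number. These correlations cannot settle whether the mice were paired. With the number as a replicate block, 0 genes and 0 members were called, 2 members had an unadjusted p under 0.05, and the median log2 fold change of the members was 0.09.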
